A study of Mus musculus with 18 samples.

Results

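The lysosome and its proton pump were followed as a set of 41 genes, taken by symbol from tables of 56953 gene identifiers. The set holds 6 lysosomal membrane proteins, 4 genes of lipid and saposin handling, 8 glycosidases and other hydrolases, 9 cathepsins, 2 regulators of lysosome formation and traffic, and 12 subunits of the vacuolar proton pump (V-ATPase), of which 4 belong to its membrane sector V0 and 8 to its catalytic sector V1. All 41 genes had reads in all 18 libraries and passed the filter on low counts in every fit. RNA was measured in microglia, astrocyte and neuron fractions that had been isolated in sequence from dissociated mouse frontal cortex with antibodies to CD45, HepaCAM and Thy1, after endothelial and oligodendrocyte lineage cells had been depleted. Mice were given intraperitoneal vehicle, 10 mg/kg of clozapine or 1 mg/kg of risperidone, 1 injection a day between postnatal days 60 and 74, and were killed on day 75. Every group, vehicle included, was of the strain B6;D2-Tg(S100B-EGFP)1Wjt/J, whose transgene expresses EGFP from S100B sequences. The cortices of 5 animals made 1 pool, each pool gave all 3 fractions, and each treatment had 2 pools, 1 in batch 1 and 1 in batch 2, so the 9 groups hold 2 libraries each. On sex the labels differ, with both sexes named in 1 field and only males in another.

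Lysosomes digest material that reaches them by endocytosis, phagocytosis and autophagy. The V-ATPase pumps protons into the lumen, and the acid pH activates cathepsins, which cut proteins, and glycosidases, which remove sugars from glycoproteins and glycolipids. Microglia, the phagocytes of the brain, are rich in cathepsins and in CD68, while neurons also use the V-ATPase to acidify synaptic vesicles so that they can be filled with transmitter. Transcription factor EB (Tfeb) binds the palindrome CACGTG within the CLEAR element in promoters of many lysosomal genes. Clozapine and risperidone are antipsychotic drugs.

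Promoter sequences are shown first, because Tfeb is itself a member and its palindrome can be looked for in the others. RefSeq promoter windows (GRCm38.p6), from 250 bases before to 50 after a transcript start, were found for 34 of the 41 genes, 41 windows in all. The palindrome CACGTG, which reads the same on both strands, stood in 12 of the 41 windows (29.3%), each from a different gene, against 7.15% of all 32851 windows. The longer palindrome TCACGTGA, which contains the first, stood in 6 (14.6%) against 0.974% of all windows. The same palindrome with a further G before it and C after it stood in 0 of the 41 windows, against 0.326% of all windows. At a share that low, 0 among 41 windows cannot tell the members from other genes. The 12 genes were Lamp1, Mcoln1, Gaa, Gla, Glb1, Ctsa, Ctsd, Ctsf, Ctsl, Atp6v0b, Atp6v0d1 and Atp6v1a. The 250 bases before the start are printed 5′ to 3′ for 5 genes, with each CACGTG palindrome, and the bases that extend it as a palindrome, in capitals. Lamp1 (chr8:13158911-13159160, plus strand) holds 4 matches, the most of any member, Ctsd (chr7:142387828-142388077, minus strand) and Gla (chrX:134601006-134601255, minus strand) hold 2 each, Atp6v1a (chr16:44139260-44139509, minus strand) holds 1, and Ctss (chr3:95526536-95526785, plus strand), the member with the highest level per kb of exon in microglia, holds none.
Lamp1: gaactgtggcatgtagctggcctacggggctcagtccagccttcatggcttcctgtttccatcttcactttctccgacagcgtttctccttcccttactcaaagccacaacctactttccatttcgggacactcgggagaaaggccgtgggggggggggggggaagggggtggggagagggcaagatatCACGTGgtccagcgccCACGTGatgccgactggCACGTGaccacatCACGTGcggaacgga
Ctsd: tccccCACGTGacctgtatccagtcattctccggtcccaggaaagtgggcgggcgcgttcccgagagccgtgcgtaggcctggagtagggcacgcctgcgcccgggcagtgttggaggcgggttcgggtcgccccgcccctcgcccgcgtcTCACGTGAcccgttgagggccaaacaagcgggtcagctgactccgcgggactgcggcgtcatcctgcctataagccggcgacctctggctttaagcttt
Gla: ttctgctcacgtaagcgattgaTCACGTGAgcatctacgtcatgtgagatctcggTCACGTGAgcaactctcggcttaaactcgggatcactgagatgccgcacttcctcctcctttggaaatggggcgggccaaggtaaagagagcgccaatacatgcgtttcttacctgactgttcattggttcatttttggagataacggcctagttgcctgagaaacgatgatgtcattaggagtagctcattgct
Atp6v1a: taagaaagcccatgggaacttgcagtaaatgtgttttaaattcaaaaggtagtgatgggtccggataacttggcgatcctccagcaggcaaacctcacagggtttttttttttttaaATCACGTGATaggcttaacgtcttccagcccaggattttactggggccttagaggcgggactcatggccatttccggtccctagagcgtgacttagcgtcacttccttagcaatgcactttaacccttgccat
Ctss: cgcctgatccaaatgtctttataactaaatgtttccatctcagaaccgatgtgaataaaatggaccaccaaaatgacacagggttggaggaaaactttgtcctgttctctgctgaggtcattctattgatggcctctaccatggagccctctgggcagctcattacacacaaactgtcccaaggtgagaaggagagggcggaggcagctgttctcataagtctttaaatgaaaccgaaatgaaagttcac
A match to these letters describes the sequence only. Genes with matches were found both among members that differed between fractions, such as Gla and Ctsd, and among members for which no difference was called, such as Lamp1, Mcoln1, Glb1 and Ctsf.

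Libraries held 4.71 to 13.39 M counts assigned to genes, with a median of 7.44 M. Levels are given as scaled CPM, counts relative to library size after scaling by the trimmed mean of M values (TMM), and differences as log2 differences with their standard error (SE), so that 1 unit is a doubling. The summed level of 10 microglia markers was 3079 to 6460 scaled CPM in the microglia fraction, 328 to 801 in the astrocyte fraction and 119 to 934 in the neuron fraction, and all 10 markers had reads in every fraction. Neuron markers summed to 3270 to 7430 in the neuron fraction against 1139 to 2450 in the astrocyte and 559 to 3016 in the microglia fraction. Astrocyte markers summed to 8868 to 16702 in the astrocyte fraction, 3307 to 8604 in the neuron fraction and 1309 to 3643 in the microglia fraction. Oligodendrocyte markers stayed high, at 6085 to 43016 in the astrocyte and 6885 to 37563 in the neuron fraction, against 427 to 2366 in the microglia fraction. Markers of other CD45 or blood cells were highest in the microglia fraction. Border macrophage markers had medians of 93.5, 30.3 and 15.7 in microglia, astrocytes and neurons, blood leukocyte markers 28.7, 14.1 and 3.31, and erythrocyte markers 4900 (1062 to 13946), 221 and 140, and their part in the microglia levels below was not tested. The fractions are therefore enriched and not pure, and in such bulk samples fewer cells of a type and less RNA per cell cannot be told apart. The labels call the pools biological replicates, and the tests measure the spread between these pools.

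Between the microglia and astrocyte fractions, 25 of the 41 genes were higher in microglia and 0 were lower (edgeR quasi-likelihood test, Benjamini-Hochberg adjusted p under 0.05). Across all 37310 genes tested, 13.0% were called in this comparison, 6.18% as higher and 6.85% as lower. The median difference of the members was 0.98, beside 0.02 for all genes. Against neurons, 22 members were higher in microglia and 5 were lower, where 47.1% of all genes were called (28.2% higher and 18.8% lower). The members' median was 0.95, beside 0.62 for all genes. Between astrocytes and neurons 6 members were higher in astrocytes and 9 were lower, where 23.7% of all genes were called (14.6% higher and 9.17% lower), and the median was 0.16 beside 0.46. The 9 lower genes were all V-ATPase subunits.

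**Figure D1:**
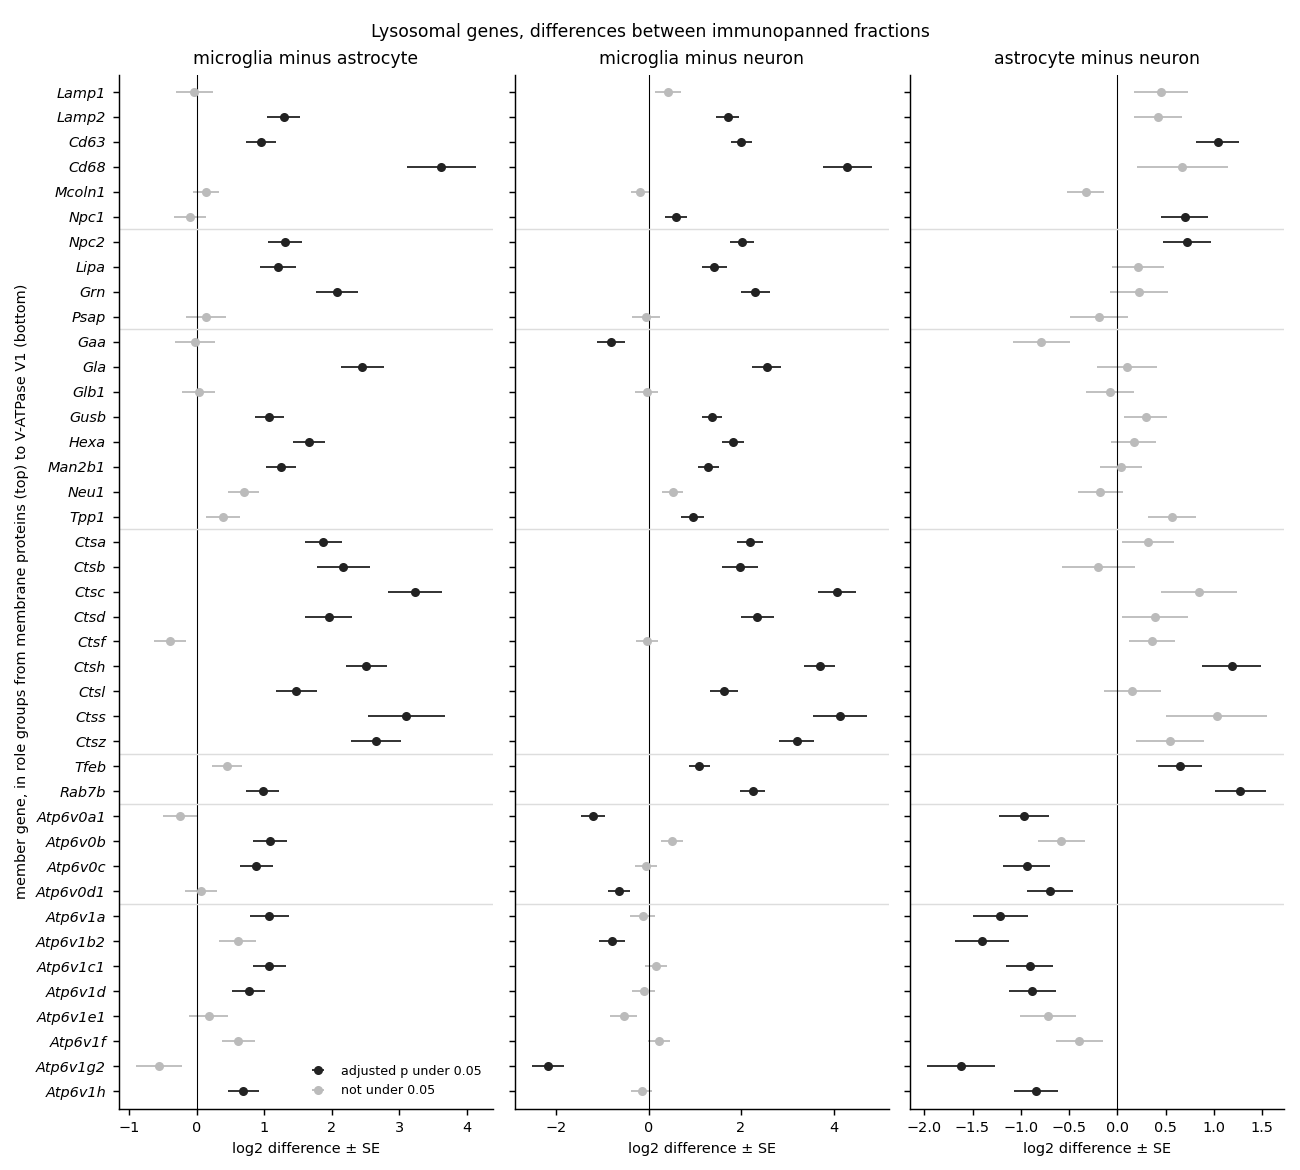
Log2 differences with their SE (horizontal axis) of the 41 members (vertical axis, in role groups divided by grey lines) between each pair of fractions. Black points passed the adjusted p threshold of 0.05 and grey points did not. Cathepsins sit far to the right of 0 in both microglia panels, apart from Ctsf, and all 12 V-ATPase subunits sit left of 0 in the astrocyte minus neuron panel.

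Leaving out any 1 of the 18 libraries gave 22 to 26 members called between microglia and astrocytes and 23 to 28 between microglia and neurons. The count between astrocytes and neurons was less stable. It fell from 15 to 8 without the vehicle astrocyte library of batch 2, 6 without the clozapine astrocyte library of batch 2, 7 without the clozapine neuron library of batch 2 and 8 without the risperidone neuron library of batch 2, in fits where 9.48%, 11.9%, 9.61% and 11% of all genes were called. In the vehicle libraries alone, with 2 libraries a fraction, 5 members were called between microglia and astrocytes (Gla, Hexa, Ctsa, Ctsc and Ctsh), 6 between microglia and neurons (Grn, Hexa, Man2b1, Ctsa, Ctsc and Ctsh) and 0 between astrocytes and neurons. In that vehicle fit 2.41%, 6.1% and 0.00337% of all genes were called.

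Among the membrane proteins, Cd68, the heavily glycosylated lysosomal protein used as a phagocyte marker, differed most. Its level was 264 to 442 scaled CPM (median 367) in the 6 microglia libraries, 11.8 to 66.4 (median 22.5) in the astrocyte libraries and 5.39 to 89.8 (median 9.29) in the neuron libraries. All 6 microglia libraries lay above all others, and the highest value outside microglia was that of the vehicle neuron pool of batch 2. Cd68 was 3.62 higher on the log2 scale in microglia than in astrocytes (SE 0.51, adjusted p = 2.36e-05) and 4.29 higher than in neurons (SE 0.53, adjusted p = 2.71e-06), higher in 6 of 6 pools each time. Lamp2, a major protein of the lysosomal membrane, was 308 to 470 (median 366) in microglia, 138 to 169 (median 156) in astrocytes and 94.9 to 167 (median 104) in neurons. The differences of Lamp2 were 1.29 (SE 0.25) and 1.71 (SE 0.25). Cd63, a tetraspanin of late endosomes and exosomes, stepped down through all 3 fractions, at 89.1 to 170, 41.04 to 68.2 and 22.8 to 42.3 scaled CPM. Cd63 was higher in microglia by 0.96 (SE 0.22) and 2.00 (SE 0.23), and in astrocytes than in neurons by 1.04 (SE 0.22).

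Lamp1, the paralogue of Lamp2, showed another pattern. Its level was 264 to 481 (median 368) in microglia, 312 to 408 (median 384) in astrocytes and 196 to 369 (median 269) in neurons, and the fractions overlapped. Lamp1 differed by -0.03 (SE 0.28), 0.42 (SE 0.28) and 0.45 (SE 0.28) in the 3 comparisons, in the order microglia minus astrocyte, microglia minus neuron and astrocyte minus neuron, and none was called. Under DESeq2 and under scaling by total counts Lamp1 was called higher in microglia than in neurons. Mcoln1, the lysosomal calcium channel TRPML1, lay at 36.4 to 77.1 over all libraries and was called in no comparison. Npc1, which exports cholesterol from the lysosome together with Npc2, was 150 to 248 in microglia, 170 to 224 in astrocytes and 89.7 to 155 in neurons. Npc1 was higher than in neurons by 0.60 in microglia (SE 0.24, adjusted p = 0.045) and by 0.70 in astrocytes (SE 0.24, adjusted p = 0.040).

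The genes of lipid and saposin handling split in the same way. Grn, which encodes progranulin, was 139 to 334 (median 227) in microglia, 35.4 to 68.8 (median 55.3) in astrocytes and 20.0 to 72.0 (median 40.3) in neurons. Its differences were 2.08 (SE 0.31) and 2.30 (SE 0.31), and microglia did not overlap either fraction. Npc2 was 118 to 214, 52.2 to 80.9 and 28.7 to 62.8 in the same order, and was called in all 3 comparisons, by 1.30, 2.02 and 0.72. Lipa, the acid lipase that splits cholesteryl esters and triglycerides, was 21.6 to 60.0 (median 38.5) in microglia, 10.6 to 21.8 (median 17.3) in astrocytes and 9.18 to 25.5 (median 14.5) in neurons. Lipa was 1.21 (SE 0.27) and 1.42 (SE 0.27) higher in microglia, in 5 of 6 pools each, and its ranges touched. Psap, the precursor of the saposins that present lipids to the hydrolases, was 544 to 774 (median 710), 459 to 703 (median 631) and 461 to 999 (median 630), and no difference was called.

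Of the 8 glycosidases and other hydrolases, 4 were higher in microglia than in astrocytes and 0 were lower, and against neurons 5 were higher and 1 was lower. Gla, the alpha-galactosidase whose loss causes Fabry disease, was 45.0 to 96.0 (median 64.8) in microglia, 6.30 to 18.5 (median 10.4) in astrocytes and 6.87 to 24.4 (median 8.45) in neurons. Gla was higher in every microglia library than in any other, by 2.45 (SE 0.32, adjusted p = 1.11e-05) and 2.55 (SE 0.32, adjusted p = 3.48e-06). Hexa, the alpha chain of beta-hexosaminidase, was 46.3 to 87.8, 14.1 to 24.7 and 11.6 to 21.7, with differences of 1.66 (SE 0.23) and 1.83 (SE 0.23). Gusb, the beta-glucuronidase, was 19.1 to 36.8, 9.69 to 17.4 and 9.26 to 18.0, with differences of 1.08 (SE 0.22) and 1.37 (SE 0.22). Man2b1, a lysosomal alpha-mannosidase, was higher in microglia by 1.25 (SE 0.22) and 1.29 (SE 0.22). Tpp1, a tripeptidyl peptidase, was called against neurons only, by 0.95 (SE 0.25), with 0.39 (SE 0.25) against astrocytes.

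Gaa, the acid glucosidase that degrades glycogen, went the other way. It was 65.5 to 113 (median 82.0) in microglia, 54.6 to 107 (median 95.9) in astrocytes and 66.3 to 257 (median 125) in neurons, with wide overlap. Gaa in microglia minus neurons was -0.81 (SE 0.30, adjusted p = 0.030), in 5 of 6 pools, and the call was lost under RLE scaling, scaling by total counts and DESeq2. Its 2 highest values were those of the vehicle and risperidone neuron pools of batch 2, at 236 and 257. Glb1, the beta-galactosidase, had one of the lowest levels per length of the set and differed by 0.03, -0.05 and -0.07 (SE 0.25 each). Neu1, a sialidase, was higher in microglia than in astrocytes in 6 of 6 pools, by 0.70 (SE 0.23), with an adjusted p of 0.052 that did not pass the threshold.

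Cathepsins made up the bulk of lysosomal RNA in microglia and not elsewhere. The 9 genes took 56.2 to 66.2% of the summed level of the 41 members in microglia, 27.7 to 38.9% in astrocytes and 15.3 to 34.6% in neurons, a share that does not depend on the scaling. The 12 V-ATPase subunits took 10.0 to 16.3%, 19.0 to 30.0% and 34.5 to 56.0%. Of the 9 cathepsins 8 were higher in microglia than in astrocytes and the same 8 than in neurons, with medians of 2.17 and 2.35 over the list. Cathepsin S (Ctss), a protease that trims the invariant chain of MHC class II, had the highest level per kb of exon of all members in microglia and in astrocytes. Its level was 1928 to 4079 scaled CPM (median 2585) in microglia, 147 to 474 (median 364) in astrocytes and 21.8 to 679 (median 117) in neurons. Every microglia library lay above every other, while the 6 neuron libraries spread over a wide range with the vehicle pool of batch 2 at the top. Ctss was 3.11 (SE 0.56, adjusted p = 0.000333) and 4.14 (SE 0.59, adjusted p = 1.45e-05) higher in microglia.

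**Figure D2:**
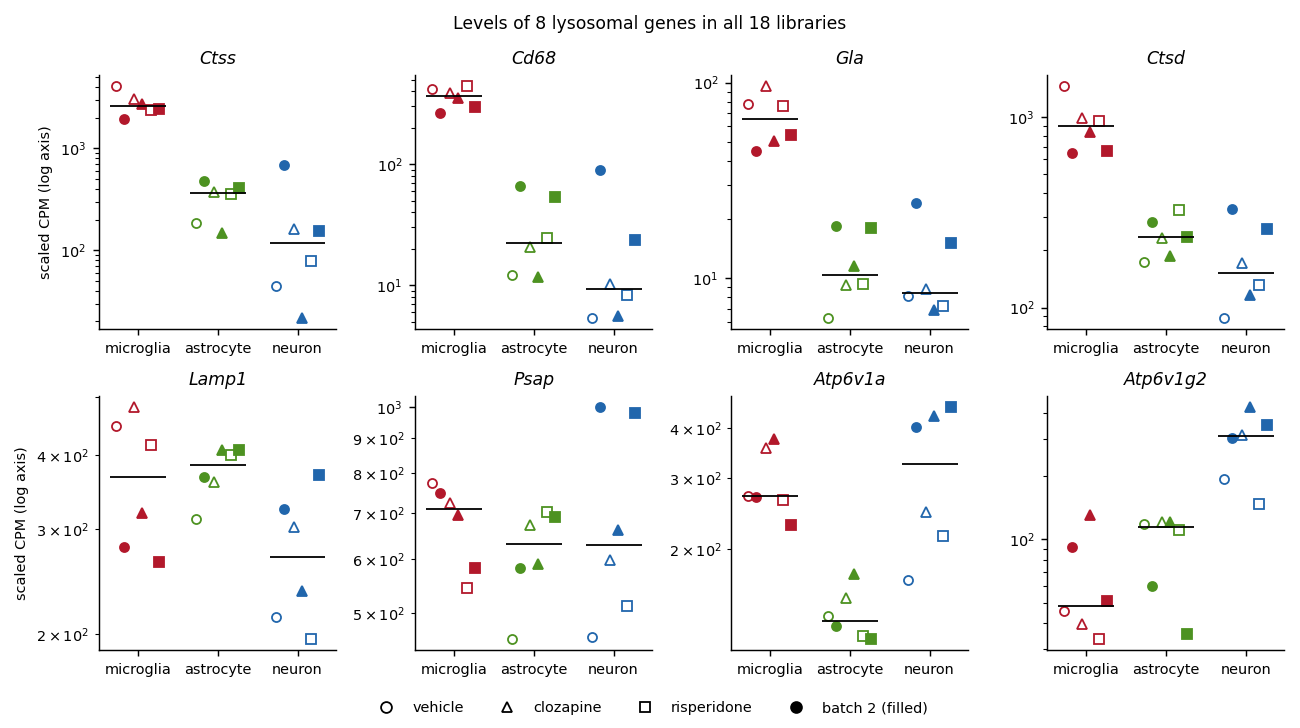
Scaled CPM (vertical log axis) of 8 members in each of the 18 libraries, by fraction (horizontal axis), with treatment as symbol shape, batch 2 filled and the median of 6 libraries as a line. Ctss, Cd68, Gla and Ctsd are higher in all microglia libraries than in any other, Lamp1 and Psap overlap across fractions, and all 6 neuron libraries of Atp6v1g2 lie above the microglia and astrocyte libraries.

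Cathepsin C (Ctsc), which activates serine proteases of immune cells, was 50.9 to 213 (median 81.4) in microglia, 7.08 to 17.5 (median 8.83) in astrocytes and 2.10 to 18.9 (median 3.62) in neurons. The differences were 3.23 (SE 0.40) and 4.08 (SE 0.42), without overlap. Ctsh, an aminopeptidase, was 53.6 to 121 (median 68.6), 11.0 to 16.8 (median 12.5) and 1.48 to 13.3 (median 5.30). Ctsh was higher in microglia by 2.51 (SE 0.31) and 3.70 (SE 0.33) and was the only cathepsin called between astrocytes and neurons, by 1.18 (SE 0.31, adjusted p = 0.011). Ctsb, a cysteine protease, was the second in microglia per length, at 2012 to 3223 (median 2895), with 421 to 704 (median 647) in astrocytes and 315 to 1276 (median 524) in neurons. Its differences were 2.17 (SE 0.39) and 1.97 (SE 0.39). Ctsd, the main aspartic protease, was 648 to 1455, 173 to 326 and 88.5 to 331, with differences of 1.95 (SE 0.35) and 2.35 (SE 0.36), and 34.4% of its exon bases also lie in exons of another annotated gene, where reads were counted for both, as do 26.8% of those of Ctsl. Ctsz, Ctsa and Ctsl were higher by 2.66, 1.88 and 1.48 than in astrocytes and by 3.20, 2.19 and 1.63 than in neurons. Ctsf alone showed no enrichment, at 40.5 to 67.3, 58.8 to 110 and 33.2 to 83.0, with -0.39 (SE 0.23, adjusted p = 0.40) and -0.03 (SE 0.23, adjusted p = 0.93).

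The sum of the 9 cathepsins moved with the microglia markers also outside the microglia fraction. Among neuron libraries it was highest, at 2758 scaled CPM, in the vehicle pool of batch 2, where the 10 microglia markers summed to 934, and lowest, at 601, in the vehicle pool of batch 1, where they summed to 124. Among astrocyte libraries it was highest, at 1845, in the vehicle pool of batch 2, where the markers summed to 801, and lowest, at 1042, in the vehicle pool of batch 1, at 328. The part of microglia RNA in the cathepsin levels of astrocyte and neuron fractions was not tested.

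**Figure D3:**
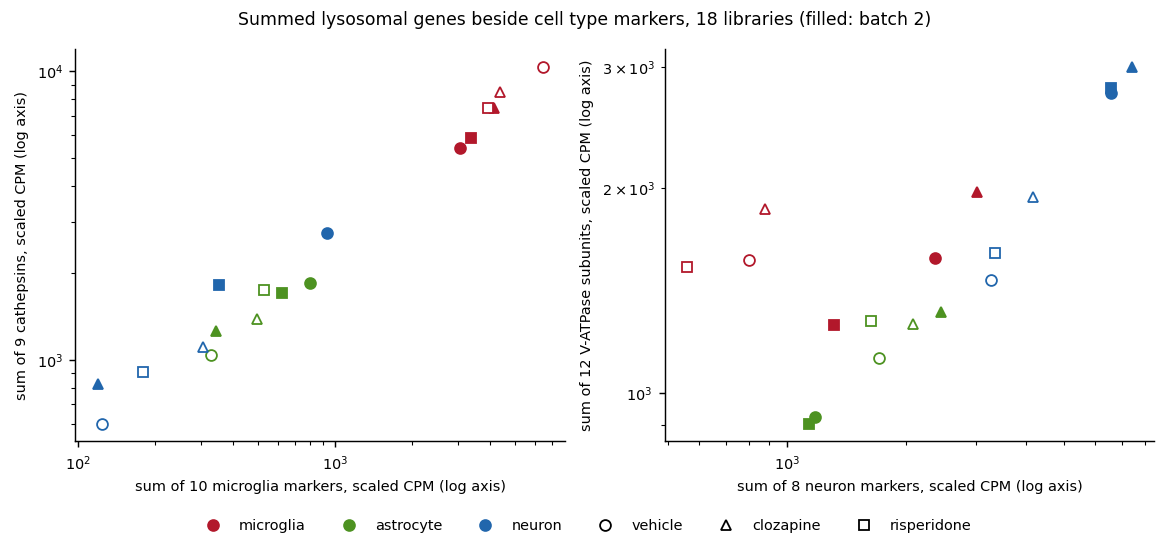
Left, sum of the 9 cathepsins against the sum of 10 microglia markers, and right, sum of the 12 V-ATPase subunits against the sum of 8 neuron markers, both axes in scaled CPM on log scales, 1 point a library. Within the astrocyte fraction and within the neuron fraction the cathepsin sum is lowest in the vehicle pool of batch 1 and highest in that of batch 2, and the 3 neuron libraries of batch 2 have the highest V-ATPase sums and the highest neuron marker sums.

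The regulators were low in all fractions. Tfeb was 19.3 to 26.0 (median 20.4) in microglia, 11.5 to 19.2 (median 16.3) in astrocytes and 5.61 to 12.5 (median 10.5) in neurons, and was called against neurons in microglia (1.09, SE 0.23) and in astrocytes (0.65, SE 0.23). The microglia and neuron ranges of Tfeb did not overlap. Rab7b, a small GTPase of late endosomal traffic, was 13.9 to 28.6 (median 22.2), 4.78 to 21.5 (median 10.8) and 2.22 to 9.14 (median 4.56). Rab7b was called in all 3 comparisons, by 0.98 (SE 0.25), 2.25 (SE 0.26) and 1.27 (SE 0.26). The first of these came from 5 of 6 pools, and in the vehicle libraries alone it was -0.12.

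The V-ATPase departed from the enzymes. Between microglia and astrocytes 6 of the 12 subunits were higher in microglia and 0 lower, between microglia and neurons 0 were higher and 4 lower (Atp6v0a1, Atp6v0d1, Atp6v1b2 and Atp6v1g2), and between astrocytes and neurons 0 were higher and 9 lower. Their medians were 0.66, -0.14 and -0.89, beside 0.02, 0.62 and 0.46 for all genes. For the 29 other members the counts were 19 higher and 0 lower, 22 higher and 1 lower, and 6 higher and 0 lower. The counts against neurons changed with the scaling. With libraries scaled by total counts the median of all genes moved to 1.13 between microglia and neurons and to 0.93 between astrocytes and neurons. The V-ATPase counts became 5 higher and 2 lower (microglia) and 0 higher and 3 lower (astrocytes). These counts are not set against the share of all genes called in that fit, so they cannot be read as an excess.

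In V1, Atp6v1a, the catalytic A subunit that binds ATP, was 229 to 377 (median 271) in microglia, 120 to 174 (median 133) in astrocytes and 168 to 451 (median 326) in neurons. Atp6v1a was 1.08 (SE 0.28) higher in microglia than in astrocytes and lower in astrocytes than in neurons by -1.21 (SE 0.28, adjusted p = 0.0065), with 6 of 6 pools in each direction. Atp6v1b2, the brain form of the B subunit, was 143 to 249.2, 96.4 to 173 and 182 to 439, and its differences were 0.61 (not called), -0.79 (SE 0.27) and -1.40 (SE 0.28). Atp6v1g2, a G subunit of the brain, was the most neuronal member. Its level was 33.7 to 130 (median 48.3) in microglia, 35.4 to 122 (median 115) in astrocytes and 147 to 426 (median 309) in neurons, so that no neuron library overlapped the others. Atp6v1g2 differed by -2.18 (SE 0.36, adjusted p = 5.93e-05) between microglia and neurons and by -1.62 (SE 0.35, adjusted p = 0.0045) between astrocytes and neurons. Atp6v1e1, an E subunit of V1, was 176 to 341, 171 to 304 and 263 to 584 and was called in no comparison. Atp6v1c1, Atp6v1d and Atp6v1h were each higher in microglia than in astrocytes (1.08, 0.77 and 0.69) and lower in astrocytes than in neurons (-0.91, -0.88 and -0.84), and none of them was called between microglia and neurons. Atp6v1f was called in no comparison.

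In V0, Atp6v0a1, the a subunit through which protons pass, was 88.0 to 190 (median 120) in microglia, 124 to 182 (median 155) in astrocytes and 208 to 390 (median 304) in neurons. The neuron libraries were all above the others, by differences of -1.20 (SE 0.26, adjusted p = 0.000828) for microglia and -0.96 (SE 0.26, adjusted p = 0.013) for astrocytes. Atp6v0b, a proteolipid of the rotor ring, was 120 to 221, 63.9 to 91.2 and 80.9 to 176, higher in microglia than in astrocytes by 1.09 (SE 0.25). Atp6v0c, the other proteolipid, was 54.4 to 74.6, 17.6 to 56.2 and 34.4 to 97.2, with 0.88 (SE 0.24) between microglia and astrocytes and -0.94 (SE 0.24) between astrocytes and neurons. Atp6v0d1 was lower than in neurons by -0.64 (SE 0.24) in microglia and -0.70 (SE 0.24) in astrocytes. Its mean differences from neurons within batch 1 and batch 2 were -0.02 and -1.16 in microglia and -0.18 and -1.11 in astrocytes.

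Several subunits have paralogues outside the 41 genes, and their shares show a change of form between fractions that does not depend on the scaling of libraries. Each gene's share was taken in the summed CPM per kb of exon of its subunit. Tcirg1, the a3 form best known from osteoclasts and macrophages, made 48.3 to 60.7% of a subunit RNA in microglia, 3.59 to 26.1% in astrocytes and 2.35 to 14.2% in neurons. Atp6v0a1 made 23.9 to 38.3%, 42.6 to 57.2% and 63.3 to 78.8%, so that no range touched another. Tcirg1 was 2.84 (SE 0.40, adjusted p = 2.42e-05) higher in microglia than in astrocytes and 3.46 (SE 0.41, adjusted p = 1.96e-06) higher than in neurons. Its highest shares in astrocytes and in neurons, 26.1 and 14.2%, came from the vehicle pools of batch 2. These vehicle pools also had the highest microglia marker sums of their fractions. The risperidone astrocyte pool of batch 2 had a Tcirg1 share of 22.5%. The part of microglia RNA in these shares was not tested.

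**Figure D4:**
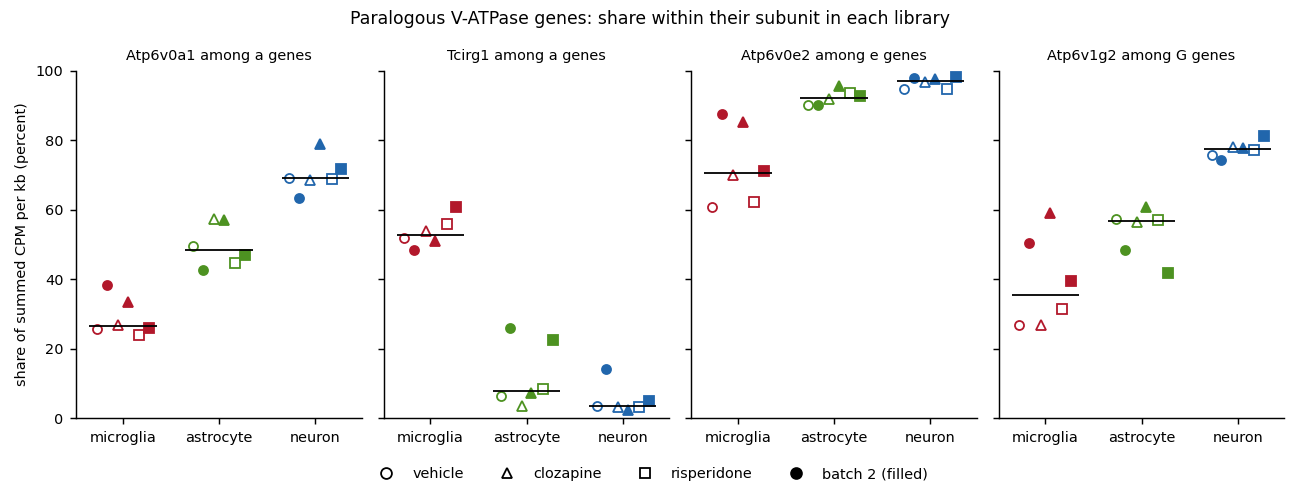
Share (vertical axis, percent of summed CPM per kb of exon) of Atp6v0a1 and Tcirg1 among the 4 genes of subunit a, of Atp6v0e2 among 2 genes of subunit e and of Atp6v1g2 among 3 genes of subunit G, in each of the 18 libraries by fraction (batch 2 filled, lines at medians of 6). The Atp6v0a1 share climbs from microglia to astrocytes to neurons without overlap, and the Tcirg1 share is above 48% in microglia alone.

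The G and e subunits changed without overlap between some fractions only. Atp6v1g2 made 26.7 to 59.1% of G subunit RNA in microglia, 41.8 to 60.7% in astrocytes and 74.3 to 81.3% in neurons, with Atp6v1g1 making most of the rest. Microglia and astrocytes overlapped in the Atp6v1g2 share. In batch 2 it was 50.4, 59.1 and 39.4% in microglia and 48.3, 60.7 and 41.8% in astrocytes (vehicle, clozapine, risperidone). In batch 1 it was 26.7, 26.9 and 31.5% against 57.2, 56.6 and 57.0%. Atp6v0e2 made 60.8 to 87.4%, 90.0 to 95.7% and 94.7 to 98.1% of e subunit RNA, with overlap between astrocytes and neurons. The d, B, C and E subunits showed no such change, since Atp6v0d1, Atp6v1b2, Atp6v1c1 and Atp6v1e1 had median shares of at least 87.1% of their subunit in every fraction. Within microglia the Atp6v0e2 share was 60.8, 70.1 and 62.1% in batch 1 and 87.4, 85.1 and 71.3% in batch 2 (same order of treatments). Neuron markers in these libraries summed to 800, 879 and 559 and to 2368, 3016 and 1314 scaled CPM. The part of neuron RNA in the microglia shares of Atp6v0e2 and Atp6v1g2 was not tested.

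Lysosomal genes outside the 41 were counted from 4 further lists of 71 genes. Of these, 26 were higher and 3 lower in microglia than in astrocytes, 33 higher and 14 lower than in neurons, and 6 higher and 5 lower in astrocytes than in neurons, with medians of 0.30, 0.57 and 0.12. All genes had medians of 0.02, 0.62 and 0.46. Of all genes, 6.18%, 28.2% and 14.6% were called higher in these comparisons, and 6.85%, 18.8% and 9.17% lower. Laptm5, a lysosomal membrane protein of blood-forming cells, was higher in microglia by 3.22 (SE 0.53) than in astrocytes and by 4.07 (SE 0.55) than in neurons. Tmem106b (-0.98) and Laptm4b (-0.94), both lysosomal membrane proteins, were the lowest against astrocytes. Ids, the iduronate sulfatase, was lower than in neurons by -2.25 (SE 0.33) in microglia and -1.58 (SE 0.33) in astrocytes, Atp6v0e2 by -1.87 (SE 0.33) in microglia and Lamp5 by -1.47 (SE 0.37) in astrocytes. Sgsh (1.15) and Ctso (1.14) were the highest in astrocytes against neurons.

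The comparisons of fractions were repeated within batch 1 and batch 2. The 9 cathepsins had median differences of 2.59 and 1.75 between microglia and astrocytes and of 3.14 and 1.73 between microglia and neurons, as means over the 3 pools of a batch. Of the 29 members other than the V-ATPase, 27 and 25 were higher in microglia than in astrocytes and 27 and 22 were higher than in neurons. Lamp1, Psap, Glb1, Neu1 and Ctsf were above 0 in batch 1 and below 0 in batch 2 against neurons, and none of these was called there. The V-ATPase median between microglia and astrocytes was 0.62 and 0.73. Its median between microglia and neurons was 0.35 in batch 1, where 8 of 12 subunits were higher in microglia, and -0.59 in batch 2, where 1 was higher. Between astrocytes and neurons it was -0.43 in batch 1 and -1.31 in batch 2, with 11 and 12 of 12 subunits lower.

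Batches were then compared within each fraction. In neurons 8 members were higher in batch 2 and 0 were lower, where 7.94% of all genes were called (4.36% higher and 3.58% lower), and the members' median was 0.62 beside -0.26 for all genes. The V-ATPase made up 6 of the 8, and with libraries scaled by total counts 3 members in all were called, beside 5.69% of all genes. Atp6v1a in neurons was 168, 247 and 216 in batch 1 and 404, 430 and 451 in batch 2, in the order vehicle, clozapine and risperidone. Every batch 2 pool was above every batch 1 pool, a difference of 1.04 (SE 0.24, adjusted p = 0.014). Atp6v1b2 was 182, 254 and 217 against 402, 439 and 410, a difference of 0.95 (SE 0.24). Gaa was 66.3, 104 and 106 against 236, 144 and 257, a difference of 1.20 (SE 0.25, adjusted p = 0.0095). Neuron markers summed to 3270, 4178 and 3348 in the neuron libraries of batch 1 and to 6589, 7430 and 6586 in those of batch 2. Oligodendrocyte markers were 18507, 37563 and 15842 against 7153, 6885 and 8222. The part of both marker lists in the batch difference was not tested. The count rose to 20 without either clozapine library, where 13.6% of all genes were called. All 8 calls were lost without either vehicle library, where 1 other member, Ctsc, was called lower (2.74% and 2.55% of all genes called), and without either risperidone library, where 0 were called (0.765% and 0.791%).

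In microglia 2 members were called between batches, where 2.00% of all genes were (1.35% higher and 0.643% lower in batch 2). Lipa was 57.5, 60.0 and 42.4 in batch 1 and 21.6, 34.6 and 25.4 in batch 2, a difference of -0.98 (SE 0.24, adjusted p = 0.027) with no overlap. In these libraries 6 markers of border macrophages summed to 389, 130 and 101 in batch 1 and 30.9, 86.4 and 42.1 in batch 2, and 5 erythrocyte markers to 13946, 9414 and 5145 against 1370, 4655 and 1062, and their part in the difference was not tested. Atp6v1g2 was 45.7, 39.8 and 33.7 against 92.5, 130 and 50.9, a difference of 1.11 (SE 0.29, adjusted p = 0.034), and neuron markers in these libraries were 800, 879 and 559 against 2368, 3016 and 1314, which was likewise not tested. Both calls were lost without either vehicle library or either clozapine library, and that of Lipa also without the risperidone library of batch 1. Gla had the third smallest p, with -0.73 (SE 0.27, adjusted p = 0.22). In astrocytes 0 members were called, where 4.21% of all genes were (1.09% higher and 3.12% lower), by edgeR's quasi-likelihood test, and 4 members had an unadjusted p under 0.05, where 20.5% of all genes had one. DESeq2 called 1. Gla (0.93, adjusted p = 0.067), Atp6v1g2 (-0.87, adjusted p = 0.080) and Rab7b (0.81, adjusted p = 0.10) had the smallest p.

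The drugs were compared with vehicle and with each other inside each fraction. No member was called in any of the 9 comparisons (0 of 41 by edgeR's quasi-likelihood test and 0 by DESeq2), and by edgeR the share of all genes called was 0% in each. DESeq2 called 20 genes (0.102%) for clozapine and 7 (0.0274%) for risperidone against vehicle in neurons, 1 in each of 2 microglia comparisons and 0 in the other 5. With 2 pools a group the tests reach large changes only. On simulated counts, 3% of 2-fold and 73% of 4-fold changes were recovered for clozapine against vehicle in microglia, 0% and 27% in astrocytes, and 5% and 64% in neurons. Only genes with a mean of at least 8 CPM were changed there, so recovery at lower levels, such as that of Rab7b in neurons, was not measured. At an unadjusted p under 0.05 there were 1 member for clozapine against vehicle in microglia, 1 in astrocytes and 3 in neurons, 1 for risperidone against vehicle in astrocytes, and 0 in the other 5 comparisons. The shares of all genes under that p were 3.17%, 1.25% and 2.81% for clozapine and 0.645% for risperidone in astrocytes.

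Among members that moved the same way in both batches, Rab7b had the smallest p for clozapine in each fraction. In astrocytes it was 14.2 and 21.5 scaled CPM with vehicle, 4.78 and 7.48 with clozapine and 6.74 and 15.4 with risperidone, batch 1 first. Both clozapine pools were below both vehicle pools, by -1.56 (SE 0.50, adjusted p = 1.00, edgeR), with -1.52 and -1.53 in the 2 batches. In neurons Rab7b was 4.76 and 9.14 with vehicle, 2.69 and 2.22 with clozapine and 4.36 and 5.56 with risperidone, a clozapine difference of -1.53 (SE 0.58, adjusted p = 1.00, edgeR). In microglia it lay the other way, at 17.6 and 13.9 with vehicle, 24.5 and 28.6 with clozapine and 21.5 and 23.0 with risperidone, a clozapine difference of 0.70 (SE 0.32, adjusted p = 1.00, edgeR). In the test of whether drug effects differ between fractions Rab7b had the smallest p of the 41 (adjusted p = 1.00, edgeR), and 0 members and 0% of all genes were called there.

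Atp6v0c in astrocytes had the smallest p for risperidone. It was 17.6 and 25.2 with vehicle, 36.9 and 31.8 with clozapine and 56.2 and 46.8 with risperidone, so both drugs lay above both vehicle pools. The risperidone difference was 1.27 (SE 0.36, adjusted p = 1.00, edgeR), with 1.68 and 0.89 in the batches, and the clozapine difference 0.66 (SE 0.36). In the microglia fraction Atp6v0c was 54.4 to 74.6 over all 6 libraries. In neurons the clozapine difference of Lipa was -0.95 (SE 0.39, adjusted p = 1.00, edgeR), from 14.0 and 25.5 with vehicle to 9.18 and 11.7.

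**Figure D5:**
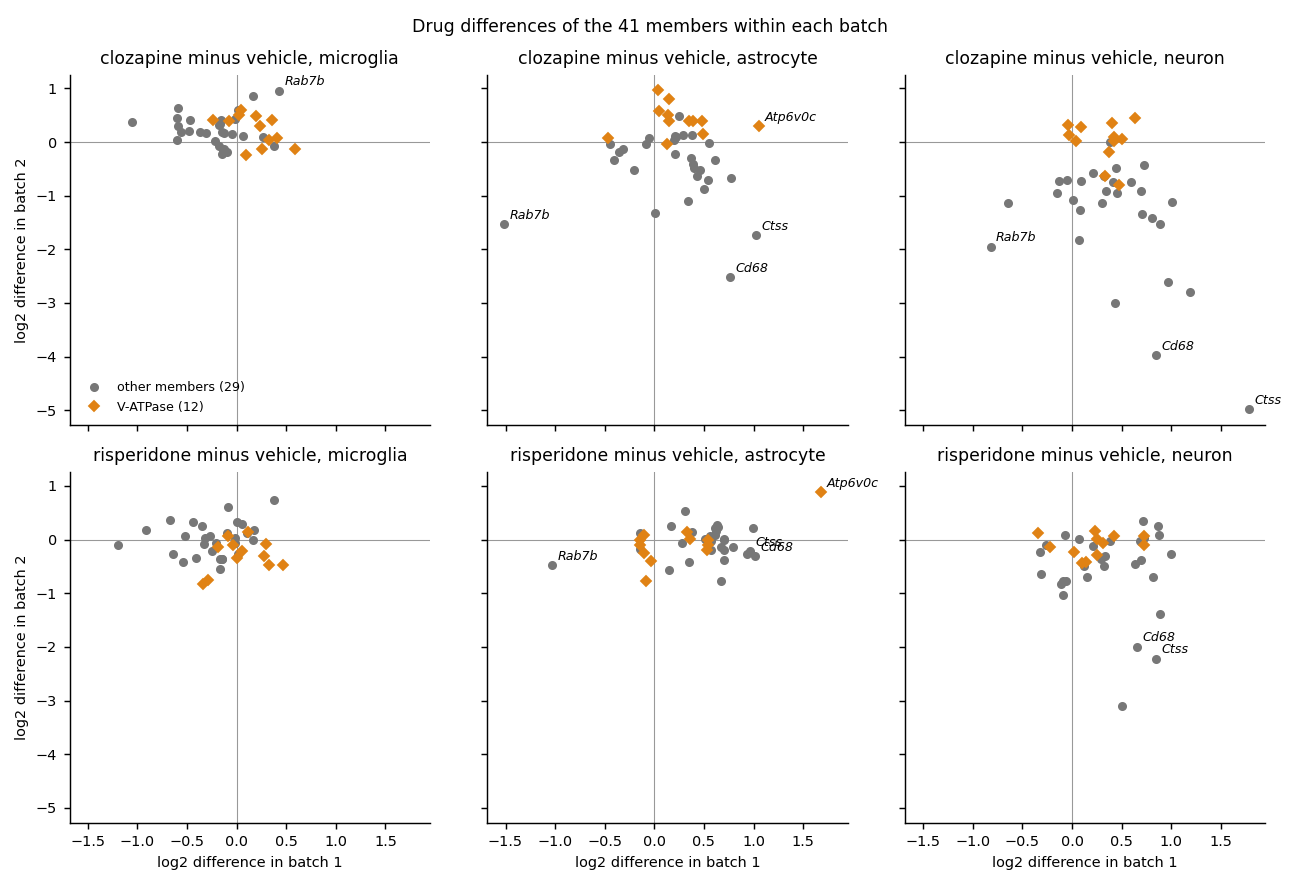
Log2 difference from vehicle in batch 1 (horizontal axis) and batch 2 (vertical axis, on another scale) for the 41 members, with clozapine above and risperidone below, 1 column a fraction, V-ATPase subunits as orange diamonds and other members as grey circles. Both vehicle pools are shared by the upper and lower panels of a column. Rab7b lies in the lower left quadrant for clozapine in astrocytes and neurons. In neurons Ctss and Cd68 lie to the right of 0 in batch 1 and far below 0 in batch 2 for clozapine.

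Several phagocyte genes in neurons moved in opposite directions in the 2 batches. Ctss was 44.9 and 679 with vehicle, 161 and 21.8 with clozapine and 78.0 and 155 with risperidone, so the clozapine difference was 1.78 in batch 1 and -4.98 in batch 2. Cd68 was 5.39 and 89.8, 10.3 and 5.61, and 8.29 and 23.8, with clozapine differences of 0.85 and -3.97. The sum of the microglia markers was 124 and 934 with vehicle, 308 and 119 with clozapine and 179 and 353 with risperidone, and had the same order of libraries within each batch. For clozapine against vehicle in neurons the difference of Cd68 was -2.58 (SE 0.91, adjusted p = 1.00, edgeR). Without the vehicle library of batch 1, 3 members were called lower with clozapine (Cd68, Ctss and Ctsz) and 3 lower with risperidone (Cd68, Ctsc and Ctss), and without the low-count filter 2 with clozapine (Cd68 and Ctss). The shares of all genes called in these fits were 0.936%, 0.51% and 0.342%. The fits without the vehicle library of batch 1 set the drug pools against the vehicle pool of batch 2 alone. That pool had the highest microglia marker sum of the 6 neuron libraries. The part of microglia RNA in these calls was not tested.

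Role groups gave the following medians. For clozapine against vehicle the 12 V-ATPase subunits had a median of 0.25 in microglia, 0.35 in astrocytes and 0.18 in neurons, with 11, 11 and 10 of 12 above 0. Neuron markers were also higher with clozapine than with vehicle in each fraction and batch, at 879 and 3016 against 800 and 2368 in microglia, 2074 and 2450 against 1704 and 1176 in astrocytes, and 4178 and 7430 against 3270 and 6589 in neurons, batch 1 first. Their part in the V-ATPase medians was not tested. The 29 other members had medians of -0.11, -0.08 and -0.42, with 13, 10 and 2 above 0. In neurons the batches differed. Cathepsins summed to 1112 scaled CPM with clozapine against 601 with vehicle in batch 1, and to 823 against 2758 in batch 2. Sums of membrane, lipid and hydrolase genes were likewise higher in batch 1 and lower in batch 2, and that of the regulators was lower in both. Microglia markers were 308 against 124 and 119 against 934, and their part in the neuron median was not tested. All genes had medians of -0.01, -0.04 and -0.03. For risperidone against vehicle the V-ATPase medians were -0.05, 0.11 and 0.01 and those of the other members -0.16, 0.22 and -0.15. Between clozapine and risperidone the V-ATPase medians were 0.33, 0.15 and 0.16, and those of the other members 0.12, -0.34 and -0.42. The medians against vehicle for clozapine kept their sign under RLE scaling, scaling by total counts and DESeq2, whereas several of the others changed sign with total counts. No single gene behind these medians passed the threshold, and the 3 comparisons of a fraction share pools.

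Other members with the smallest p, among those that moved the same way in both batches, are given by their differences alone. They were Cd63 (0.53, SE 0.31) and Atp6v1a (0.38, SE 0.29) for clozapine and Rab7b (0.56), Ctsc (-0.88, SE 0.51) and Atp6v0a1 (-0.57, SE 0.35) for risperidone in microglia. In astrocytes they were Atp6v1b2 (0.48, SE 0.39) and Atp6v0c (0.66) for clozapine and Rab7b (-0.69) and Gaa (0.56) for risperidone. In neurons they were Gusb (-0.59, SE 0.41) for clozapine and Mcoln1 (0.58, SE 0.32), Gusb (-0.59) and Cd63 (-0.51) for risperidone. Between clozapine and risperidone they were Atp6v1g2 (0.90, SE 0.52), Atp6v1d (0.49) and Atp6v1a (0.46) in microglia, Cd68 (-1.30, SE 0.68), Man2b1 (-0.63, SE 0.34) and Rab7b (-0.87, SE 0.50) in astrocytes, and Rab7b (-1.02), Man2b1 (-0.68) and Ctsh (-1.20, SE 0.72) in neurons. None had an adjusted p below 0.05.

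Within a fraction the members kept a steep order of levels. Per kb of exon, Ctss (2038 scaled CPM per kb as the mean of 6 libraries), Ctsb (446), Ctsd (394), Cd68 (286) and Psap (247) led in microglia, and Tfeb (3.82) was the lowest. In astrocytes Ctss (239), Psap (224), Lamp1 (140), Ctsd (102) and Ctsb (99.1) led. In neurons Psap (256), Ctss (140), Atp6v1g2 (115), Ctsb (115) and Lamp1 (102) led, and Rab7b (1.04) was the lowest. In neurons the ranges of Ctss and Atp6v1g2 overlapped, and the place of Ctss rested on the vehicle pool of batch 2.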

How the data were processed

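RNA from 18 libraries was sequenced as paired ends, and the deposited tables hold raw read counts per gene, made by the authors with featureCounts 2.0.8 on GRCm 39, per the file headers and the submitters' processing notes. Per the file headers, reads overlapping several genes were counted for each and no strand setting was given, and the aligner was not given in the sources used here. Libraries held 4.71 to 13.39 M counts, and the number of pools, 2 a group, limits precision more than depth does.

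Counts were tested as deposited with edgeR 4.0.16 (R 4.3.3): TMM scaling, edgeR's filter on low counts, and the quasi-likelihood F test with Benjamini-Hochberg adjustment over all genes tested, called at an adjusted p under 0.05. Fractions were compared as averages over treatments in 1 fit of all 18 libraries, drugs in 1 fit per fraction, and batches with treatment as a covariate. SE is the log2 difference divided by the root of F. The members and lists were chosen with earlier results of these data known. Values were given for the member with the highest level and up to 3 with the largest called differences in each role group, and for the 3 with the smallest p in each drug comparison (moving the same way in both batches) and each batch comparison; Tcirg1, Ctsd and the other genes named beyond that were chosen after their values were seen. Of the genes that this rule names, 1 is not reported here. Replicates of a group differed beyond counting noise, with a chi-square per degree of freedom of 14.04 to 57.39. The labels give the pairing: a pool supplies all 3 fractions, and replicate numbers are batches. Deviations from group means correlated at -0.39 to 0.12 for a pool across fractions and at 0.099 to 0.45 for a batch across treatments. The fitting code was tested on simulated counts. Alternatives were a replicate block, RLE scaling, no low-count filter, DESeq2 1.42.0, vehicle libraries only, all libraries in 1 fit, each library left out, and scaling by total counts, the last chosen after seeing the data.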

Additional observations from a re-analysis of the deposited data

Results flagged for a closer look

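The 25 members named in the fraction comparisons were looked at in each fraction, on the scale of log2 of scaled CPM plus 1. In 3 of these 75 pairs, 1 of the 6 libraries of a fraction stood apart from the others by Dixon's ratio (critical value 0.625), a rule that chance alone meets in about 1 in 20 groups. Gusb was 18.0 scaled CPM in the neuron library of vehicle batch 2, against 9.26 to 11.3 in the other neuron libraries. Tfeb was 5.61 in the neuron library of clozapine batch 2, against 10.3 to 12.5. Atp6v0b was 63.9 in the astrocyte library of clozapine batch 1, against 81.0 to 91.2. On this log scale the high vehicle neuron values of Ctss and Cd68 in batch 2 did not pass the critical value.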

How the results depend on the processing

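With a replicate block for the pool, 26, 27 and 17 members were called between microglia and astrocytes, microglia and neurons, and astrocytes and neurons, and with a block for the batch 0 in each drug comparison, so that the pairing moved no count by over 1.5 times. In vehicle libraries alone the 3 fraction counts were 5 (5 higher), 6 (6 higher and 0 lower) and 0 (0 higher and 0 lower). Members lower in microglia than in neurons, 5 in all, numbered 2 with RLE scaling, 3 without the low-count filter, 2 with total counts and 3 with DESeq2. With total counts 18 members were higher and 3 lower in astrocytes than in neurons, and the median of all genes was also higher than under TMM scaling. Clozapine against vehicle in neurons gave 2 without the filter. Between batches, astrocytes gave 1 with RLE scaling, 2 without the filter, 9 with total counts and 1 with DESeq2, and neurons gave 4 without the filter and 3 with total counts. The counts in this section are not set against the share of all genes called in the same fit. They show only how the calls moved with the processing.

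With 1 library left out, the fraction counts ranged from 22 to 26, 23 to 28 (21 to 24 higher and 2 to 5 lower) and 6 to 16 (3 to 8 higher and 3 to 10 lower), the batch counts from 0 to 3 in microglia, 0 to 3 in astrocytes and 0 to 20 in neurons, and those of clozapine and of risperidone against vehicle in neurons from 0 to 3 each; the lone library of such a group was taken to vary like the other groups. Reversed differences were Rab7b between microglia and astrocytes in vehicle libraries (-0.12), Ctsc for risperidone in microglia without vehicle batch 1 (0.29, against -1.55 without vehicle batch 2) and Atp6v1g2 for clozapine against risperidone in microglia without clozapine batch 2 (-0.19). The cause was not tested.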
